A study of Arabidopsis thaliana with 116 samples.

Results

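The transcriptome of Arabidopsis thaliana roots 1 h after transfer to medium with 150 µM salicylic acid (SA) was compared with that of roots 1 h after transfer to the same medium without a hormone. The comparison was made by the sample labels, 3 SA libraries against 3 control libraries, and these are 6 of the 58 root libraries of a series that holds as many shoot libraries. All genes were described: 27655 were listed and 21367 passed the filter on low counts. The plants of both groups were the wild-type strain Col-0 with no transgene, grown for 5 days on vertical agar plates with 16 h of light and 8 h of dark and then moved on their nylon mesh to the new plates. Roots were cut from shoots with a razor blade at harvest, and polyadenylated RNA was sequenced as stranded libraries with paired reads of 150 bp. The rest of the series, used below only where stated, holds shoots of the same seedlings, later times, controls at 0 h, and plants moved to abscisic acid (ABA). The submitters describe the libraries as separate biological replicates, and the labels do not say how many of the seedlings on a plate went into each.

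SA is a phenolic hormone best known for its part in immunity against biotrophic pathogens. In Arabidopsis it is bound by NPR1, a coactivator, and by its relatives NPR3 and NPR4, which act as corepressors or as adaptors of protein degradation, and all of them work through TGA factors, bZIP proteins that bind the motif TGACG. NIMIN proteins bind NPR1 and dampen its activity, several WRKY transcription factors act downstream, and sugar transferases and hydroxylases turn free SA into less active forms. SA taken up by roots is also known to act on auxin transport and root growth.

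The 6 libraries held between 24770738 and 37225642 counts, with a median of 26437301.5. Values below are CPM, read counts scaled by library size and composition, and changes are log2 fold changes of SA over control with their standard error (SE). Across genes with a mean of 5 CPM or more, log2(CPM + 0.5) values correlated at 0.983 to 0.993 within the SA group, at 0.990 to 0.993 within the control group and at 0.923 to 0.953 between the groups. No pair of libraries was identical. SA library 1 was the nearest of the SA libraries to the controls in 53.6% of the genes called at least 2-fold higher and in 56.2% of those called at least 2-fold lower. The 12 markers of green shoot tissue, such as the small subunit of Rubisco, summed to 30.7, 33.1 and 37.0 CPM with SA, against 27.6, 25.7 and 42.7 CPM in controls, and 0 of 12 were called. In shoot libraries of the same time they summed to between 120521 and 138020 CPM. The 16 markers of root cell types all had reads in the 6 libraries and summed to 775, 728 and 787 CPM with SA, against 719, 732 and 721 CPM in controls.

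Promoter sequence is shown for 5 genes because TGACG is the motif bound by the TGA partners of the NPR proteins. ARD3 encodes acireductone dioxygenase, an enzyme of the methionine salvage cycle, and had the largest change of all tested genes. NIMIN-2 and NIMIN1 encode the NPR1-binding proteins, and NPR4 and NPR3 the SA receptors. Each window is the 250 bases before the annotated start of the gene, on the gene's own strand, from RefSeq, build TAIR10.1. Capitals mark TGACG read on either strand, so that CGTCA is the same motif on the other strand. The windows are chr2:11233389-11233638 (minus strand) for ARD3, chr3:9471040-9471289 (minus) for NIMIN-2, chr4:10698812-10699061 (minus) for NPR4, chr5:18228518-18228767 (plus) for NPR3 and chr1:498540-498789 (minus) for NIMIN1.
ARD3: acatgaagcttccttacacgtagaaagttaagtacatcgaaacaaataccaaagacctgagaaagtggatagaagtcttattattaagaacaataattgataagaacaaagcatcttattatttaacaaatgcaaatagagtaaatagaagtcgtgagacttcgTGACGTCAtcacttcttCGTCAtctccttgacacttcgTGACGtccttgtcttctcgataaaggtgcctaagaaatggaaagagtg
NIMIN-2: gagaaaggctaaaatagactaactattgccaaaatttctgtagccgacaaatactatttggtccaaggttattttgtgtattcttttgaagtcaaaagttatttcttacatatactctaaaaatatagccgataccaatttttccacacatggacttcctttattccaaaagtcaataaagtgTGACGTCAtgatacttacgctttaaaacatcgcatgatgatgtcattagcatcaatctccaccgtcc
NPR4: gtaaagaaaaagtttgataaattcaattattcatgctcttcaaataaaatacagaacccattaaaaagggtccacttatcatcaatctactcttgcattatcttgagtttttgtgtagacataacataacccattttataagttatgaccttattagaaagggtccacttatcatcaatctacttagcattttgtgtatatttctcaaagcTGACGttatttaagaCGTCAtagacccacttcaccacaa
NPR3: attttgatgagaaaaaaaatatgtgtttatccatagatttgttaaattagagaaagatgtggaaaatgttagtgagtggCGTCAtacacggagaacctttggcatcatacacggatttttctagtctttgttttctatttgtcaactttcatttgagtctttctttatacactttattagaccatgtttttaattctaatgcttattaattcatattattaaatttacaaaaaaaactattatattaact
NIMIN1: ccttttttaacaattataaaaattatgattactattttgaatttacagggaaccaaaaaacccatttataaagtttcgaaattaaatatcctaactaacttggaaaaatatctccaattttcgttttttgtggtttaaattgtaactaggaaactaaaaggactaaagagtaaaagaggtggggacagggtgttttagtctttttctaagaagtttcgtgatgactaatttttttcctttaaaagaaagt
The ARD3 window held 4 matches, of which the first 2 overlap as a palindrome, the NIMIN-2 window 2 overlapping matches in the same palindrome, the NPR4 window 2, the NPR3 window 1 and the NIMIN1 window 0. Among 21261 tested genes with a RefSeq start, 19.4% had at least 1 TGACG on either strand in this window and 3.48% had at least 2. In all these shares 1 palindrome TGACGTCA counts as 2 matches. Of 133 genes called at least 8-fold higher, 31.6% had at least 1 and 13.5% at least 2. Of 989 genes called at least 2-fold higher, 25.2% had at least 1 and 6.27% at least 2. Of 1040 genes called at least 2-fold lower, 17.5% had at least 1 and 2.02% at least 2. Genes that were not called had the motif in 18.8% of cases. The W box bound by WRKY factors, searched as TTGACC and TTGACT on both strands, was in 28.9% of all windows, in 36.1% of those at least 2-fold higher and in 30.0% of those at least 2-fold lower. Of the 10 genes of the SA perception list, 4 of which are printed, 3 had TGACG. Of the 12 highest named genes 5 had TGACG, 2 of them at least 2. WRKY62, WRKY38, WRKY54, SIB1 and CYP702A3 were among the highest genes without it. Of the 10 lowest named genes 3 had TGACG, 2 of them at least 2. The W box was in 1 of the 12 highest and in 3 of the 10 lowest. The NIMIN-2 window held 2 W boxes and the other printed windows 0. A match describes letters in a window and does not show binding.

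SA changed a large share of the root transcriptome within 1 h, with nearly equal numbers of genes in each direction. At an adjusted p under 0.05, 9663 genes were called (45.2% of those tested), 4850 higher (22.7%) and 4813 lower (22.5%). The median log2 fold change over all tested genes was 0.00, and the median size of the change among called genes was 0.52. At least 2-fold changes were found for 2040 called genes (9.55%), 1000 higher (4.68%) and 1040 lower (4.87%). The largest changes were increases: 134 genes were at least 8-fold higher and 54 at least 8-fold lower. The SA and control libraries did not overlap in 10564 genes (49.4%).

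**Figure D1:**
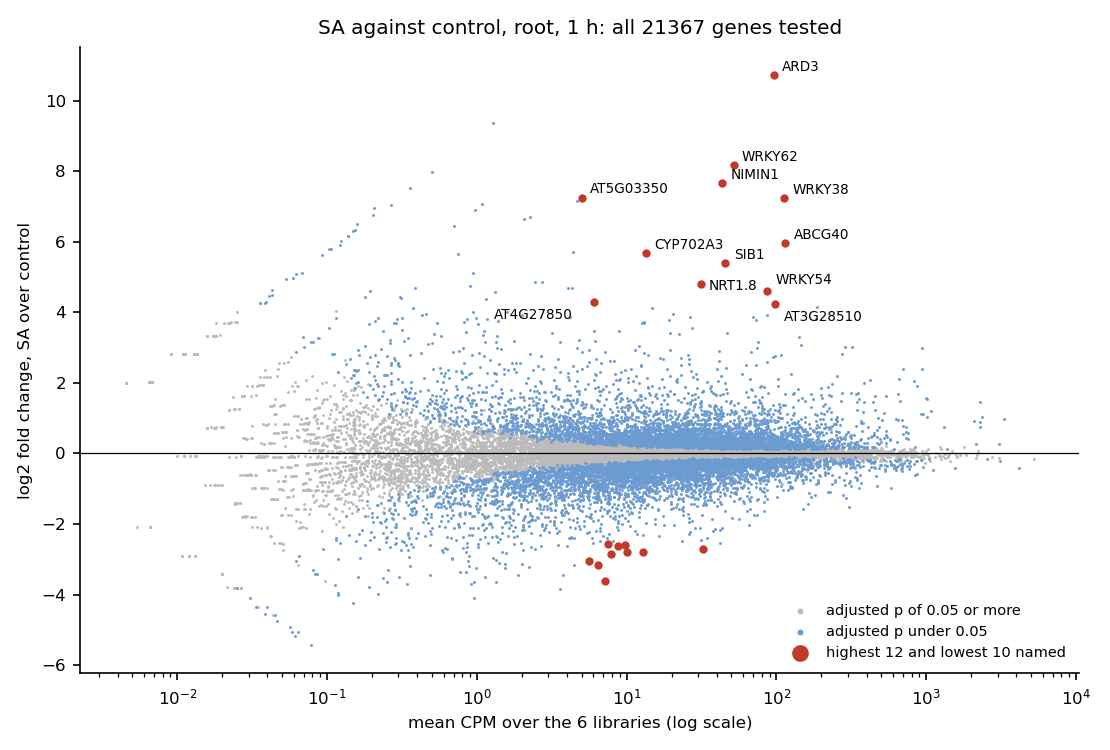
Log2 fold change of SA over control in roots at 1 h (y axis) against the mean CPM of the 6 libraries (x axis, log scale), 1 point a gene, with called genes in blue, other tested genes in grey and the highest 12 and lowest 10 named genes in red. The highest named genes run to 10.71 while the lowest reach -3.61.

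In the SA perception list NIMIN1, NIMIN-2 and NPR3 had large increases and NPR4 a smaller one, while the other members changed little or fell. NIMIN1 was measured at 59.1, 88.0 and 111 CPM with SA, against 0.418, 0.437 and 0.397 CPM in controls. Every SA library was far above every control library, and the log2 fold change was 7.67 ± 0.24 (SE; adjusted p 1.95e-29). NIMIN-2 was at 31.1, 38.5 and 45.2 CPM with SA, against 1.61, 3.18 and 2.78 CPM in controls, a log2 fold change of 3.95 ± 0.15. NPR3 was the most abundant gene of the group, at 600, 544 and 398 CPM with SA, against 74.2, 56.6 and 58.1 CPM in controls. Its groups were well apart, with a log2 fold change of 3.03 ± 0.11 (adjusted p 1.36e-27). NPR4 was at 111, 112 and 112 CPM with SA, against 45.8, 47.6 and 52.1 CPM in controls, and the libraries within each group were nearly equal (log2 fold change 1.20 ± 0.08). NPR1 itself, which a gene on the opposite strand overlaps, moved little, averaging 50.8 ± 3.28 CPM with SA and 41.3 ± 1.70 CPM in controls (SD, n = 3 each; log2 fold change 0.30, adjusted p 0.0043). Its close relative AT4G26120 fell by 0.88 and the leaf development gene BOP2, also overlapped, fell by 0.81 on the log2 scale. Of the 10 genes of this list 5 were called higher, 2 lower and 3 were not called, with a median log2 fold change of 0.24. Among all tested genes 22.7% were higher and 22.5% lower, so the lower count is near that share.
Of 10 TGA factors 4 were higher and 2 lower, with a median of 0.12, where 22.7% of all tested genes were higher and 22.5% lower, so the lower count is near the share of all genes. TGA10 averaged 115 ± 35.0 CPM with SA and 42.4 ± 3.95 CPM in controls (log2 fold change 1.44 ± 0.12). PAN, a TGA factor known from flower development that a gene on the other strand overlaps, was higher by 0.96, and TGA7 by 0.63. TGA1 was at 162, 162 and 176 CPM with SA, against 260, 313 and 330 CPM in controls, and it fell by 0.86 on the log2 scale. TGA4, which is closely related to TGA1 and also has a gene on the other strand, fell by 0.64.

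The WRKY factors linked to SA had the highest median change of the 31 lists. Of 16 tested, 11 were called higher and 0 lower, with a median log2 fold change of 3.42 against 0.00 over all genes. Among all tested genes 22.7% were called higher and 22.5% lower. The list is a chosen part of the family. Of 63 tested genes annotated as WRKY factors, 24 were higher and 14 lower, with a median of 0.16. That lower count is near the share of all genes. WRKY62 was at 88.6, 98.6 and 123 CPM with SA, against 0.579, 0.238 and 0.199 CPM in controls. Control library 1 was the highest of the controls, and the log2 fold change of 8.17 ± 0.21 was 8.87 without it. WRKY38, like WRKY62 a group III factor known to limit basal defence, was at 225, 217 and 232 CPM with SA, against 1.42, 1.95 and 1.11 CPM in controls (log2 fold change 7.24 ± 0.18). WRKY54 had the smallest p of the named genes in this comparison, with 167, 168 and 162 CPM with SA, against 7.18, 6.35 and 6.71 CPM in controls. Both groups were tight, and the change was 4.61 ± 0.10 (adjusted p 1.00e-36). WRKY70, which acts with WRKY54 as a repressor of SA synthesis and an activator of SA responses, was at 304, 342 and 382 CPM with SA, against 13.4, 33.2 and 27.0 CPM in controls (3.81 ± 0.25). WRKY59 was at 6.49, 9.16 and 10.1 CPM with SA, against 0.193, 0.159 and 0.119 CPM in controls (5.70 ± 0.30). WRKY66 held a single count over the 3 controls. Only a ratio of summed counts, scaled by library size and composition, can be given, 154 with a 95% counting interval of 27.2 to 6100. WRKY18 and WRKY40, paired regulators of microbe-triggered genes, changed by 3.77 and 3.87, and WRKY40 has a gene on the opposite strand. WRKY51 changed by 3.07, WRKY33, with a gene on the opposite strand, by 1.53 and WRKY6 by 0.66. WRKY46, WRKY50, WRKY53, WRKY58 and WRKY60 were not called. WRKY53, also overlapped on the other strand, averaged 2.49 CPM with SA and 3.58 CPM in controls.

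**Figure D2:**
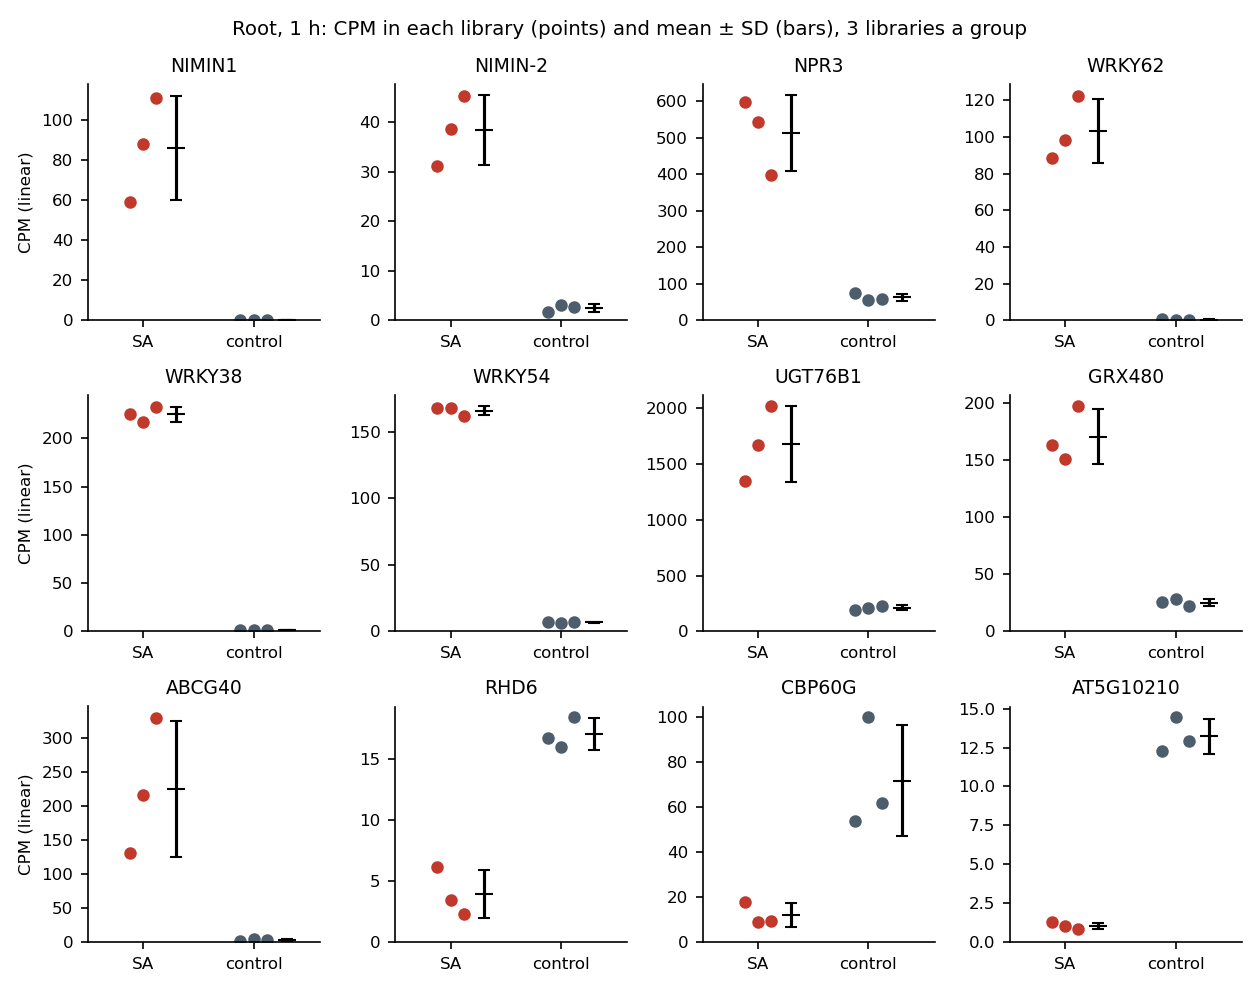
CPM on a linear axis starting at 0 for 12 genes in the 3 SA libraries (left, red) and the 3 control libraries (right, grey) of roots at 1 h, with the mean and SD as bars. NIMIN1, NIMIN-2, NPR3, the WRKY genes, UGT76B1, GRX480 and ABCG40 are higher in every SA library, and RHD6, CBP60G and AT5G10210 lower in every SA library, than in any control library.

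Of 13 genes of SA modification 6 were higher, 2 lower and 5 not called, with a median of 0.23, where 22.7% of all tested genes were higher and 22.5% lower. UGT76B1, a glucosyltransferase acting on SA and N-hydroxypipecolic acid, was at 1343, 1669 and 2019 CPM with SA, against 187, 212 and 232 CPM in controls. The groups were clearly apart at a high level, and the log2 fold change was 3.00 ± 0.10 (adjusted p 8.92e-28). UGT74F2, which forms the SA glucose ester and has a gene on the opposite strand, was at 401, 555 and 750 CPM with SA, against 60.3, 74.3 and 74.2 CPM in controls (3.03 ± 0.14). AT4G10500, the SA 3-hydroxylase, was at 24.1, 36.8 and 45.8 CPM with SA, against 2.22, 3.69 and 1.79 CPM in controls (3.79 ± 0.23). Its relative DMR6, the SA 5-hydroxylase, was at 227, 204 and 187 CPM with SA, against 72.6, 75.2 and 67.6 CPM in controls (1.52 ± 0.13). SOT12, a sulfotransferase that accepts SA, was at 101, 209 and 313 CPM with SA, against 42.1, 41.0 and 48.9 CPM in controls, and SA library 1 was by far the lowest of its group (2.24 ± 0.19). The lower members were MES9 and UGT74F1, which a gene on the other strand overlaps.
In the list of SA synthesis, 1 of 11 genes was higher, 4 were lower and the median was -0.20. Of this list 45.5% were called, near the 45.2% of all tested genes. Among all tested genes 22.7% were higher and 22.5% lower. The isochorismate synthase EDS16 (also called ICS1) averaged 6.31 CPM with SA and 6.53 CPM in controls and was not called. The 2 related activators of that gene moved in opposite directions. SARD1 was at 6.68, 5.89 and 4.72 CPM with SA, against 0.290, 0.794 and 0.596 CPM in controls (3.41 ± 0.27), with a gene on the opposite strand. CBP60G was at 18.0, 8.87 and 9.52 CPM with SA, against 53.5, 99.8 and 61.6 CPM in controls. No library of either group reached into the range of the other, and the log2 fold change was -2.53 ± 0.37 (adjusted p 1.45e-07). The phenylalanine ammonia lyase gene PAL2 fell by 0.98 on the log2 scale and PAL1 by 0.46.

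The PR genes, classical late markers of SA, were not detected at 1 h. PR1, BGL2 (the PR2 glucanase) and PR5 had 0 counts in all 6 libraries; 3 counts in a library is taken as the limit that a count of 0 allows. PCR1 was at 0.245, 0.858 and 0.503 CPM with SA and at 0 in every control, at least 4.80-fold higher over a floor of 3 counts per library. LURP1 was at 0.218, 0.204 and 0.194 CPM with SA and at 0 in every control, at least 1.84-fold higher. NUDT7, a nudix hydrolase that restrains EDS1 signalling, averaged 142 ± 14.8 CPM with SA and 70.4 ± 3.20 CPM in controls (log2 fold change 1.01). These were the 3 of 7 tested genes called higher; 0 were lower and the median was 0.00. When only the 6 libraries were fitted, 1 of the list was called. Among 9 genes of the EDS1 and pipecolate pathway 6 were higher and 0 lower, with a median of 0.49. For all tested genes the share called higher was 22.7%. AT5G52810, the reductase of pipecolate synthesis, which overlaps a gene on its own strand, was at 35.6, 43.0 and 60.5 CPM with SA, against 11.0, 14.9 and 12.7 CPM in controls (1.85 ± 0.15). ALD1, the aminotransferase before it, changed by 1.58. The helper immune receptors ADR1 and ADR1-L1 changed by 0.60 and 0.54. ADR1-L1 has near-identical stretches elsewhere and a gene on the opposite strand. EDS1 averaged 45.1 CPM with SA and 42.3 CPM in controls and was not called.

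In the xenobiotic list 9 of 11 tested genes were higher and 0 lower, with a median of 1.56, where 22.7% of all tested genes were higher. Of the glutaredoxins of the CC type 2 of 10 were higher and 0 lower, a share near that of all genes. GRX480, a glutaredoxin that binds TGA factors, was at 163, 151 and 198 CPM with SA, against 25.5, 28.1 and 22.2 CPM in controls (2.76 ± 0.15). GRXS13 of the same class changed by 1.88. ABCG40, a plasma membrane transporter of the pleiotropic drug resistance type, was at 131, 217 and 330 CPM with SA, against 2.19, 5.20 and 3.73 CPM in controls. The SA libraries spread widely but all lay far above the controls, with a log2 fold change of 5.95 ± 0.23. CYP81D8, a cytochrome P450 that responds to foreign chemicals, was at 201, 337 and 530 CPM with SA, against 15.5, 22.0 and 22.2 CPM in controls (4.16 ± 0.23). UGT74E2, which glucosylates indole-3-butyric acid, was at 665, 1137 and 1742 CPM with SA, against 159, 236 and 277 CPM in controls (2.40 ± 0.18). Of 32 tau and phi glutathione transferases 13 were higher and 6 lower, with a median of 0.13. The lower count is near the 22.5% of all tested genes that were lower. GSTU11 averaged 148 ± 50.9 CPM with SA and 24.5 ± 6.67 CPM in controls (2.60 ± 0.19), GSTU24 averaged 1514 ± 384 CPM with SA and 523 ± 85.0 CPM in controls (1.53 ± 0.12), and GSTU17, which overlaps a gene on its own strand, fell by 1.13 on the log2 scale.
In the list of the mitochondrial stress response 9 of 11 were higher and 1 lower, with a median of 0.82. Among all tested genes 22.7% were higher and 22.5% lower. BCS1 (OM66), an outer mitochondrial membrane ATPase known to respond to SA, was at 82.2, 128 and 188 CPM with SA, against 15.9, 19.9 and 14.3 CPM in controls (2.99 ± 0.19). AOX1A, the alternative oxidase, was at 210, 313 and 394 CPM with SA, against a range of 109 to 124 CPM in controls (1.39 ± 0.14). In both genes the SA libraries were ordered alike and none reached down to the controls. NAC017, the membrane-bound factor upstream of these genes, fell by 0.39. Of 13 genes of folding in the endoplasmic reticulum 8 were lower and 2 higher, where 22.5% of all tested genes were lower. The decreases were small, with CNX1, a calnexin, at -0.43 and the chaperone BIP2, which has a near-identical copy, at -0.37. BIP3, the stress-induced BiP, was at 1.06, 2.21 and 8.05 CPM with SA, against 0.129, 0.516 and 0.0794 CPM in controls. Its log2 fold change of 3.94 ± 0.81 was 2.72 without SA library 3 and 5.06 without control library 2. The splicing-activated factor BZIP60 changed by 0.91. Of 8 heat shock genes 2 were higher and 0 lower, near the 22.7% of all tested genes that were higher.
Of 11 rapid stress factors 7 were higher and 2 lower, with a median of 1.31. Among all tested genes 22.7% were higher and 22.5% lower, so the lower count is near that share. STZ (ZAT10), a zinc finger repressor, was at 54.3, 44.3 and 51.8 CPM with SA, against 14.0, 15.6 and 14.5 CPM in controls (1.77 ± 0.28). RHL41 (ZAT12) averaged 200 ± 42.8 CPM with SA and 60.6 ± 8.61 CPM in controls (1.72 ± 0.16). RRTF1 changed by 3.00, and by 3.87 without control library 1, and has a gene on the opposite strand. ORA59 had 0 counts with SA and 0.0644, 0.0397 and 0.0794 CPM in controls, too few for a fold. It is one of the lower calls of the list, and the call was lost with DESeq2 and without SA library 1, 2 or 3 or control library 1 or 3.

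**Figure D3:**
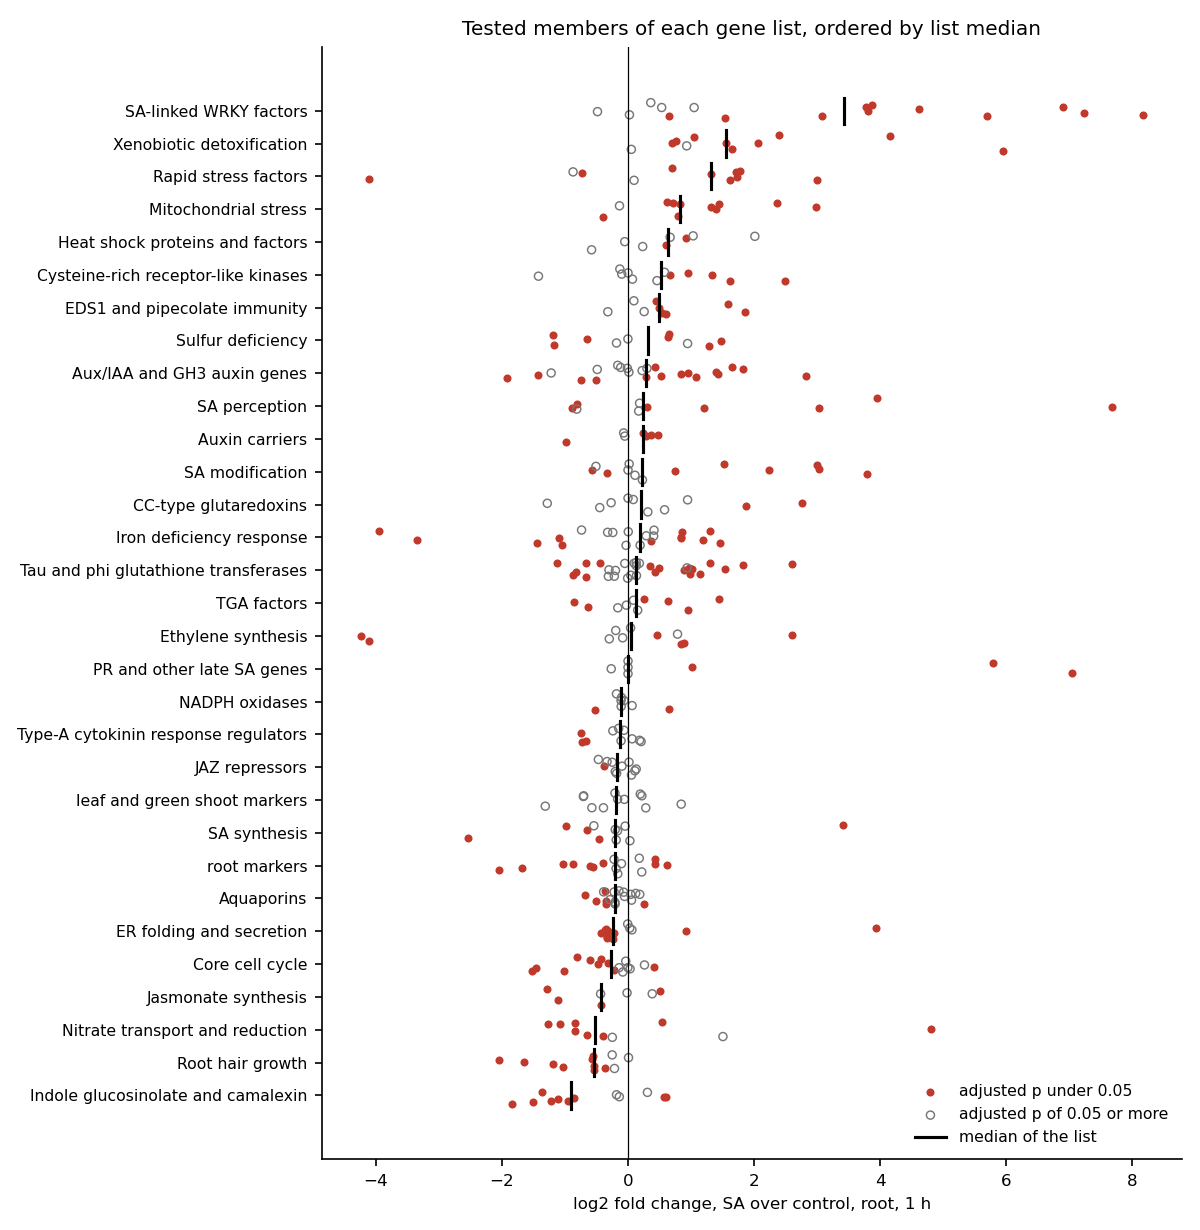
Log2 fold change of SA over control (x axis) for the tested members of each of 31 gene lists (rows, ordered by median), with called genes as filled red points, other genes as open points and the median as a black bar. The SA-linked WRKY factors have the highest median, 3.42, and the indole glucosinolate and camalexin list the lowest, -0.90.

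Other hormone pathways moved in part. Their counts stand beside 22.7% of all tested genes called higher and 22.5% called lower. GH3.3, an acyl amido synthetase that conjugates auxin, was at 371, 476 and 598 CPM with SA, against 69.9, 74.3 and 59.7 CPM in controls. The groups did not overlap, and the log2 fold change was 2.82 ± 0.15 (adjusted p 1.27e-20). Among 23 Aux/IAA, GH3 and related auxin genes 11 were higher and 4 lower, with a median of 0.28. IAA30, with a near-identical stretch elsewhere, averaged 5.49 ± 1.63 CPM with SA and 1.53 ± 0.580 CPM in controls (1.83). GH3.17 fell by 1.42 and LBD29, a factor of lateral root initiation, by 1.92. IAA5, overlapped on the other strand, changed by 1.65, by 2.46 without control library 2, and was no longer called without SA library 1, control library 1 or control library 3. The auxin importer AUX1 was at 72.0, 52.8 and 41.4 CPM with SA, against 120, 105 and 104 CPM in controls (-0.98 ± 0.11). The exporter PIN3, which has a near-identical stretch elsewhere, changed by 0.36 and PIN4 by 0.29. PIN4 was no longer called without SA library 1, control library 1 or control library 3. Of 7 carriers 4 were higher and 1 lower, and 3 in all were called without control library 1.
ACS11, an ACC synthase of ethylene biosynthesis, was at 74.0, 65.1 and 73.0 CPM with SA, against 11.2, 12.9 and 10.7 CPM in controls (2.61 ± 0.14). ACS5 of the same family was at 0.191, 0.0818 and 0 CPM with SA, against 1.38, 2.34 and 1.79 CPM in controls. Its log2 fold change of -4.10 was -5.38 without SA library 1. ACS8 was at 0.0272, 0 and 0 CPM with SA, against 0.225, 0.159 and 0.477 CPM in controls. In the ethylene list 4 of 11 were higher and 2 lower, with a median of 0.04. The lower count is near the 22.5% of all tested genes that were lower.
MYC2, the main transcription factor of jasmonate signalling, was at 27.6, 20.4 and 23.4 CPM with SA, against 61.6, 55.8 and 57.2 CPM in controls (-1.28 ± 0.10), and a gene on the opposite strand overlaps it. AOS, an early enzyme of jasmonate synthesis, was at 13.9, 7.32 and 8.01 CPM with SA, against 26.5, 21.6 and 16.0 CPM in controls (-1.11 ± 0.15). SA library 1 was close to control library 3 there without reaching it. AOC3 changed by 0.51 and was no longer called without SA library 1 or control library 3. Of 7 genes of jasmonate synthesis and its regulator 3 were lower and 1 higher. The JAZ repressors, whose RNA is a usual readout of jasmonate, gave 1 lower and 0 higher of 11, JAZ4 at -0.38, and between 0 and 4 calls as single libraries were left out. Type-A response regulators, a readout of cytokinin, gave 3 lower (RR5 -0.75, ARR9 -0.72, RR3 -0.67) and 0 higher of 10. Among all tested genes 22.5% were lower, so the lower count is near that share. ARR9 and RR3 have near-identical stretches elsewhere and genes on the opposite strand.

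Secondary metabolism and nutrient genes changed in both directions. Shares over all tested genes, 22.7% higher and 22.5% lower, stand beside each count below. In the indole glucosinolate and camalexin list 7 of 12 were lower and 2 higher, with a median of -0.90. CYP83B1, an enzyme of the indole glucosinolate core pathway, was at 208, 152 and 117 CPM with SA, against 470, 544 and 350 CPM in controls (-1.51 ± 0.19). MYB34, the regulator of these genes in roots, was at 35.0, 22.0 and 12.8 CPM with SA, against 63.0, 65.0 and 54.3 CPM in controls (-1.37 ± 0.16). CYP79B3 fell by 1.22 and MYB122 by 1.83, while the myrosinase gene PEN2 and MYB51 rose by 0.61 and 0.57. PAD3 of camalexin synthesis averaged 55.3 CPM with SA and 44.6 CPM in controls and was not called.
NRT1.8, which takes nitrate out of the xylem sap, was at 43.5, 67.8 and 69.7 CPM with SA, against 1.74, 2.26 and 2.54 CPM in controls. It stood far apart from the controls (4.80 ± 0.18; adjusted p 1.50e-26), and a gene on the other strand overlaps it. Uptake and reduction went the other way. The transceptor NRT1.1 was at 233, 151 and 126 CPM with SA, against 438, 463 and 333 CPM in controls (-1.27 ± 0.14), the nitrate reductase NIA1 fell by 1.09, and the nitrite reductase NIR1 by 0.84. In this list 6 of 10 were lower and 2 higher, with a median of -0.52.
In the iron list 7 of 21 were higher and 5 lower, where 22.7% of all tested genes were higher and 22.5% lower, so the lower count is near the share of all genes. FRU (FIT), the master regulator of iron uptake, averaged 169 ± 7.58 CPM with SA and 92.8 ± 5.55 CPM in controls (0.86 ± 0.10). Its partner bHLH39 was at 91.8, 104 and 122 CPM with SA, against 29.6, 45.6 and 40.2 CPM in controls (1.46 ± 0.15). A further partner, BHLH100, was at 0.272, 0.0409 and 0.0774 CPM with SA, against 0.933, 2.74 and 1.03 CPM in controls. Its log2 fold change of -3.34 was -4.59 without SA library 1 and -2.67 without control library 2. The uptake genes IRT1, at 150 CPM with SA and 131 CPM in controls, and FRO2, at 38.6 CPM with SA and 64.9 CPM in controls, were not called. ABCG37, a coumarin and auxin precursor exporter, averaged 1506 ± 159 CPM with SA and 658 ± 76.2 CPM in controls (1.19 ± 0.11). APR3, a sulfate assimilation reductase with a gene on the other strand, was at 934, 986 and 1018 CPM with SA, against 224, 394 and 438 CPM in controls (1.48 ± 0.14). The root sulfate transporter SULTR1;2 fell by 1.17, and the sulfur list had 4 of 10 higher and 3 lower. That lower count too is near the share of all genes.
Of 12 tested cysteine-rich receptor kinases 5 were higher and 0 lower, led by CRK10 at 2.49. CRK10 has near-identical stretches elsewhere and a gene on the other strand. Of 8 NADPH oxidases RHD2 (RBOHC), the root hair oxidase, changed by 0.65, and RBOHB, with a gene on the opposite strand, by -0.52, which was no longer called without SA library 2.

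Of 12 root hair genes 9 were lower and 0 higher, with a median of -0.55, where 22.5% of all tested genes were lower. Without control library 2, 5 of them were called. RHD6, the factor that starts root hair formation, was at 6.16, 3.43 and 2.32 CPM with SA, against 16.7, 16.0 and 18.5 CPM in controls. The groups were apart, with SA library 1 nearest to the controls (-2.05 ± 0.16; adjusted p 1.14e-14). Its target RSL4 was at 6.21, 4.29 and 3.87 CPM with SA, against 13.0, 17.4 and 15.4 CPM in controls (-1.64 ± 0.15). RSL2 fell by 1.19 and SHV2 (COBL9), a wall protein of growing hairs, by 1.04. In bulk roots, fewer cells of a type and less RNA per cell cannot be told apart. WER and GL2, regulators of the epidermal pattern, changed by 0.44 and 0.42, GL2 with genes overlapping on both strands, and the root cap factor NAC015 (BRN1) fell by 1.69. Of the 16 root markers 3 were higher and 7 lower.
SIM, a cyclin-dependent kinase inhibitor of endoreduplication with a gene on the other strand, was at 10.7, 12.8 and 13.4 CPM with SA, against 29.3, 38.2 and 38.2 CPM in controls (-1.52 ± 0.14). ICK1, also an inhibitor, fell by 1.45, the cyclin CYCA1;1 by 1.01 and CYCD3;1, which overlaps a gene on its own strand, by 0.82. Of 16 cell cycle genes 9 were lower, 1 higher and 6 not called, with a median of -0.27, against 22.5% of all tested genes lower. Aquaporins changed little: 1 of 18 was higher, 5 were lower, and 3 in all were called without SA library 3. Their lower count is near the 22.5% of all tested genes that were lower.

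The other genes at the ends of the ranking belong to no list. ARD3 was at 109, 202 and 265 CPM with SA, against 0, 0.119 and 0.238 CPM in controls. Control library 1 had no read and SA library 1 was the lowest with SA, and the log2 fold change of 10.71 ± 0.32 was 10.05 without control library 1 and 11.73 without control library 3. ARD3 has near-identical stretches in AT4G14710 and AT4G14716. The lectin gene AT5G03350 was at 8.26, 11.0 and 10.7 CPM with SA, against 0.161, 0 and 0 CPM in controls, so its fitted log2 fold change of 7.25 was 11.37 without control library 1, and AT5G03345 lies on the opposite strand. SIB1, a VQ protein that binds WRKY33, was at 74.0, 86.7 and 107 CPM with SA, against 1.87, 2.54 and 1.95 CPM in controls (5.40 ± 0.24). CYP702A3, a cytochrome P450, was at 18.3, 31.0 and 29.3 CPM with SA, against 0.354, 0.675 and 0.516 CPM in controls (5.68 ± 0.23). AT3G28510, an ATPase of the P-loop class, changed by 4.23, and the glycine-rich protein gene AT4G27850 by 4.28, with AT4G27852 on the other strand. A further group is the 96 called genes with at most 3 counts in every control library. AT1G15610 was at 1.63, 3.07 and 2.98 CPM with SA and 0 in controls, at least 22.9-fold higher over a floor of 3 counts per library. From 3 control counts each, scpl14 had a ratio of 110 (95% counting interval 37.5 to 538) and TBL42 of 107 (36.2 to 520). The carboxypeptidase-like gene scpl14 has near-identical stretches elsewhere, and TBL42 overlaps AT1G78700 on its own strand.
The lowest gene by this ranking, which needs a mean of 5 CPM, was AT5G10210, at 1.28, 1.02 and 0.851 CPM with SA, against 12.3, 14.4 and 12.9 CPM in controls (-3.61 ± 0.29), with AT5G10220 on the opposite strand. AT2G40230, an acyltransferase, was between 1.104 and 1.44 CPM with SA, against 11.3, 11.9 and 11.6 CPM in controls (-3.17 ± 0.16). LEP, an AP2 factor of organ growth, was at 1.50, 1.06 and 1.01 CPM with SA, against 13.6, 8.89 and 7.86 CPM in controls (-3.06 ± 0.21). In each of these the SA libraries were all lower than any control. SKOR, the potassium channel that loads the xylem, was at 4.01, 1.35 and 0.890 CPM with SA, against 13.1, 12.2 and 13.8 CPM in controls. Its change of -2.55 ± 0.30 was -3.53 without SA library 1, and AT3G02840 overlaps it on the other strand. The lipase gene AT5G55050 changed by -2.59, and by -3.41 without SA library 1, and has a gene on the other strand. The other members of the lowest 10 were EXO70H2 (-2.84), AT4G39780 (-2.80), AT2G36090 (-2.79), BMY3 (-2.70) and AT4G13620 (-2.63), of which EXO70H2, AT2G36090 and BMY3 have a gene on the opposite strand.

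Most of the genes changed at least 2-fold at 1 h were called in the same direction at each later time. Of the 1000 genes at least 2-fold higher at 1 h, 911 were called higher at 2 h, where 29.4% of all tested genes were. At 4 h 814 of them were called higher (all tested genes 30.8%), at 7 h 793 (27.9%), at 24 h 652 (32.1%) and at 48 h 685 (36.1%). Of the 1040 genes at least 2-fold lower, 903 were called lower at 2 h, where 32.1% of all tested genes were. At 4 h 656 of them were called lower (all tested genes 30.8%), at 7 h 601 (30.4%), at 24 h 594 (32.9%) and at 48 h 629 (38.7%). Calls in the opposite direction numbered 4 of the 1000 higher genes at 2 h and 103 at 48 h, and 7 of the 1040 lower genes at 2 h and 159 at 48 h. Each time has its own controls. The difference between the SA effect at 2 h and at 1 h passed the test for 4748 genes (22.2%). Among the 4850 genes higher at 1 h, 1120 had a larger and 357 a smaller increase at 2 h, and among the 4813 lower genes 851 had a larger and 456 a smaller decrease. The 2 h libraries carry another library name series than the 1 h libraries, so time and library series cannot be told apart. WRKY54 changed by 5.37 at 2 h, against 4.61 at 1 h, a difference of 0.75 (adjusted p 1.8e-05). It averaged 166 CPM with SA at 1 h and 182 CPM at 2 h, while its controls averaged 6.75 and 4.46 CPM. WRKY62 changed by 10.75 at 2 h, a difference of 2.58 (adjusted p 0.0010). Its mean with SA was 103 CPM at 1 h and 99.2 CPM at 2 h, and its control mean was 0.339 and 0.122 CPM. The larger fold of WRKY62 at 2 h thus came with lower controls and no higher level with SA. AT3G28510 reached 569 CPM with SA at 2 h, against 6.79 CPM in controls (6.39, a difference of 2.16). NIMIN1 was between 8.07 and 8.62 at all later times, and its difference at 2 h of 0.80 did not pass the test (adjusted p 0.25). Among the lowest genes SKOR was at -5.55 at 2 h and -3.22 at 48 h, while AT5G10210 was at -5.07 at 2 h and 0.58 at 48 h.

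**Figure D4:**
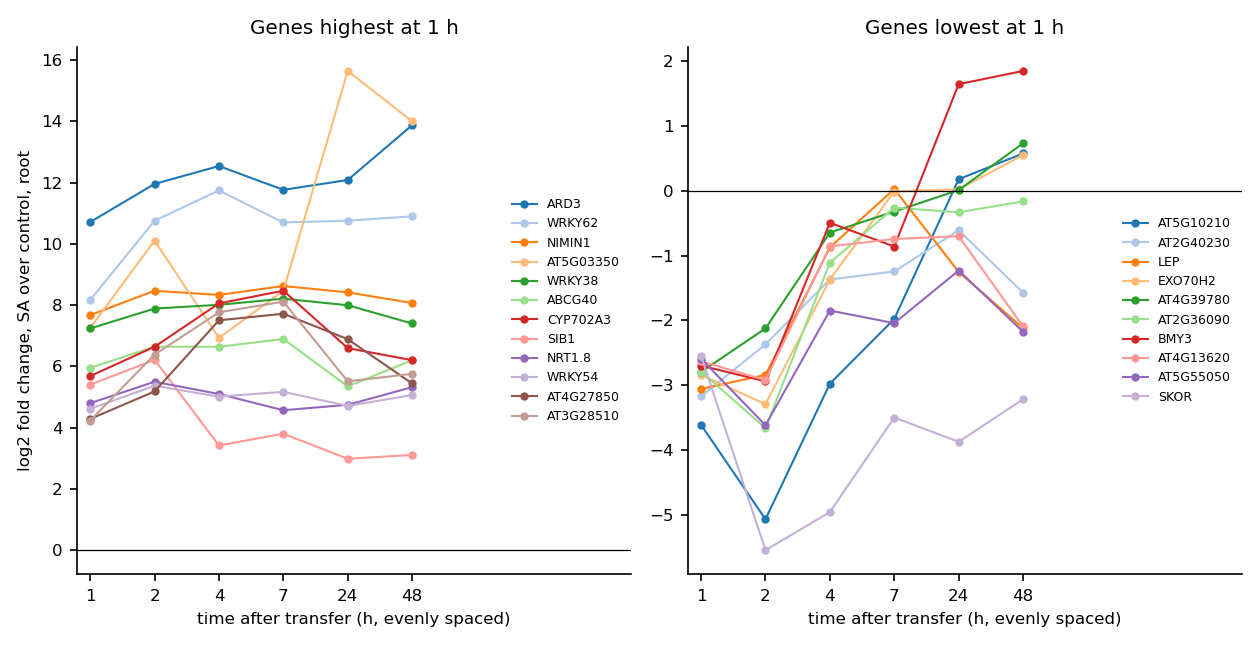
Log2 fold change of SA over control in roots (y axis) at 1, 2, 4, 7, 24 and 48 h (x axis, evenly spaced) for the 12 highest (left) and 10 lowest (right) named genes at 1 h, each time against its own controls; values of AT5G03350, ARD3 and WRKY62 rest on controls near 0. All 12 highest genes stay above 0, and SKOR, AT2G40230, AT5G55050, AT4G13620 and AT2G36090 are the 5 lowest genes that stay below 0 at every time.

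The shoots of the same time had far fewer calls. At 1 h 308 of 22322 genes were called in shoots (1.38%), 232 higher (1.04%) and 76 lower (0.34%), and 211 of the 232 were also called higher in roots. The SA effect itself differed between root and shoot in 2851 genes (12.8%), with a higher value in roots for 5.48% and a lower one for 7.29% of those tested. With only the libraries compared in the fit, 1589 genes differed. Of the 1000 genes at least 2-fold higher in roots, 139 were called higher in shoots and 489 had a larger effect in roots by the test of the difference. Of the 1040 lower genes, 40 were called lower in shoots and 587 had a larger effect in roots. ABCG40 averaged 3.57 CPM with SA and 2.51 CPM in controls in shoots, and its log2 fold change was higher in roots by 5.51 (adjusted p 4.4e-11). ARD3 averaged 4.94 CPM with SA and 0.502 CPM in controls in shoots, a difference between tissues of 7.41 (adjusted p 1.3e-08). NIMIN1 changed by 3.99 in shoots, 3.70 less than in roots, and NPR3 by 1.22, which was 1.83 less. SARD1, CBP60G and WRKY18 also differed, by 1.86, -2.26 and 2.90. For WRKY54 the difference was -0.54 (adjusted p 0.41), for NIMIN-2 0.42 (0.41), for UGT76B1 0.62 (0.17) and for GH3.3 -0.04 (0.99), none of which passed the test. WRKY38 changed by 6.61 in shoots, a difference of 0.64 (adjusted p 0.85).

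**Figure D5:**
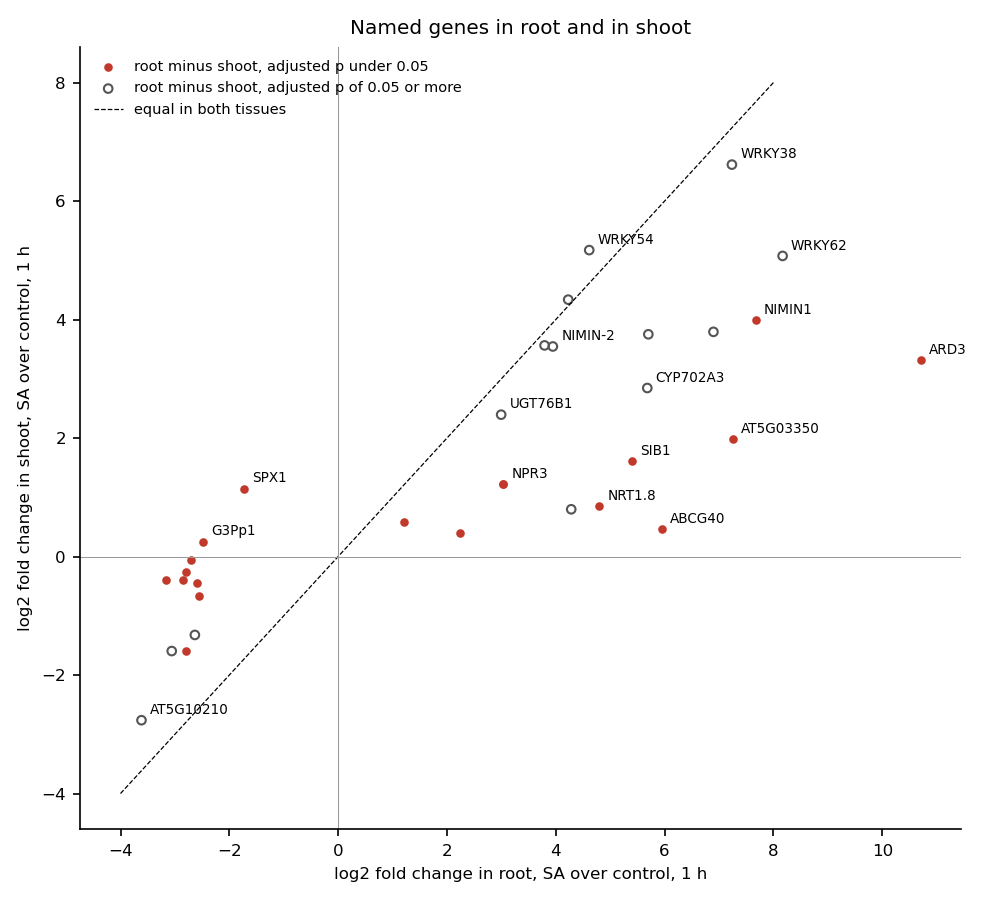
Log2 fold change of SA over control at 1 h in shoots (y axis) against roots (x axis) for the named genes at the ends of the ranking, those of SA perception, SA modification and the WRKY list, and those that differ most between tissues; filled points passed the test of root minus shoot and the dashed line marks equal effects. ARD3, ABCG40, NIMIN1, SIB1 and NRT1.8 lie right of the line, while WRKY54, WRKY38, NIMIN-2 and UGT76B1 did not pass the test.

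Roots given SA for 1 h were also compared directly with roots given 2 µM ABA for 1 h, since both hormones share the same controls. The test called 11443 genes (53.6%), 5529 higher with SA (25.9%) and 5914 lower (27.7%). WRKY62 averaged 103 ± 17.5 CPM with SA and 0.0460 ± 0.0137 CPM with ABA (SD, n = 3 each), a difference of 10.93. Its change against the controls was 8.17 with SA and -2.76 with ABA. ARD3 changed by 10.71 with SA and 0.31 with ABA, and WRKY38 by 7.24 with SA and -1.94 with ABA. At the other end stood genes of the ABA response. AT5G24080, a protein kinase gene overlapped on the other strand, was at 0.327, 0.204 and 0.232 CPM with SA and averaged 128 ± 1.55 CPM with ABA, a difference of -8.90. PUB19, an E3 ligase gene, changed by -2.10 with SA and 5.77 with ABA, and HB-12, a homeodomain factor, by -1.77 with SA and 5.46 with ABA.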

How the data were processed

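RNA was measured in 58 root libraries and as many shoot libraries. The authors deposited raw read counts per gene for 27655 genes, with no normalization, made with HISAT2 and featureCounts on TAIR10 per the submitters' processing notes. The strand setting and the handling of reads with several matches are not given in the sources used here. Named genes with a gene on the opposite strand, or with a near-identical copy or stretch elsewhere, are therefore marked. A copy or stretch was at least 100 nt at 90% identity (BLAST 2.17.0), which can be a small part of a gene. Gene names came from RefSeq, assembly TAIR10.1, in which 27445 identifiers matched; the other 210 are organellar.

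From these counts, edgeR 4.0.16 in R 4.3.3 filtered genes with filterByExpr, scaled libraries with TMM, and fitted a group-means model to the 58 root libraries (19 groups, so that all share the spread). Quasi-likelihood F-tests were adjusted by the Benjamini-Hochberg method over all tested genes, with a threshold of 0.05. The shoot calls and the difference between root and shoot used the libraries of both tissues (38 groups). SE was derived from the change and its F statistic. Alternatives were DESeq2 1.42.0, other scaling, filters, samples and a replicate block. In counts simulated for this comparison edgeR recovered 91 of 98 genes changed 2-fold and 97 of 99 changed 4-fold among 20855 tested, with 13 other calls. The simulation changed 200 genes and took the spread from the fitted trend. In the data 45.2% of tested genes were called, so these rates need not carry over. Counting intervals and floors (3 counts) cover counting error only.

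The members and lists were chosen with earlier results of these data known. Named genes were the 12 highest and 10 lowest called genes whose groups did not overlap and whose 6 libraries averaged 5 CPM or more, up to 4 called members of each list with the largest change (or, with fewer than 2 called, up to 2 of the highest level), the 3 highest and 3 lowest genes of at least 5 CPM in each test of a difference, and the 4 with the highest level with SA among called genes with at most 3 counts in each control. Other list members named were chosen after their values were seen.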

Additional observations from a re-analysis of the deposited data

Results flagged for a closer look

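The effect of SA differed between root and shoot at 1 h, by the test of the difference, for these named genes (root minus shoot, log2). It was larger in roots by 3.97 for NRT1.8, by 3.81 for SIB1 and by 3.70 for NIMIN1. NRT1.8 averaged 28.0 CPM with SA and 15.5 CPM in controls in shoots, and SIB1 averaged 12.4 CPM with SA and 4.14 CPM in controls there. The difference was -2.76 for the acyltransferase gene AT2G40230. It was -2.86 for SPX1 and -2.71 for G3Pp1, both known as markers of phosphate starvation.

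Between 2 h and 1 h in roots the effect differed by 4.66 for AT1G52130, by 4.66 for PLA-I{beta]2 (AT4G16820) and by 4.03 for CPK22. It was lower at 2 h by -2.99 for SKOR, by -2.87 for AT2G48080 and by -2.84 for XTH13. CPK22 and XTH13 have near-identical stretches elsewhere. At 1 h the change of PLA-I{beta]2 of 3.82 was 2.88 without SA library 3, that of CPK22 of 4.86 was 5.80 without control library 2, that of AT2G48080 of -1.59 was -2.36 without SA library 1, and that of XTH13 was -1.71 without SA library 1. The 2 h libraries carry another library name series, and its part in these differences was not tested.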

How the results depend on the processing

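The 9663 calls became 9554 with DESeq2, 9683 with its size factors in edgeR, 9470 without a filter, 8017 among genes of at least 5 CPM and 7515 with only the 6 libraries. No gene called in both changed direction under any of these. Leaving out single libraries gave 8591 to 9295 calls, 4353 to 4812 higher, 4090 to 4483 lower and 1902 to 2206 at least 2-fold changed. The genes at least 2-fold changed numbered 1056 among genes of at least 5 CPM, a setting with fewer genes tested. The tissue difference gave 1589 genes with only the libraries compared, the cause was not tested, and 2245 to 3027 without single libraries. The 2 h difference gave 3264 to 5505 and the comparison with ABA 10551 to 11048.

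Equal replicate numbers gave no clear pairing of the libraries: deviations of the same number correlated at 0.303, -0.228 and 0.194. Those of different numbers ran from -0.402 to 0.258. With 3 libraries a group these values cannot exclude pairing. With a replicate block 9750 genes were called, 4926 for the 2 h difference, 3532 for the tissue difference and 11489 against ABA. Of 142 named genes, 8 lost their call under some alternative (ORA59, JAZ4, AOC3, PIP2;5, IAA5, PIN4, RBOHB and PIP2B), and none reversed. ORA59 lost it with DESeq2 and without most single libraries. Counts of calls in 9 of 31 lists moved by over 1.5 times somewhere. At this depth genes near 0 in controls have no firm fold.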

Other observations

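Several gene families outside the lists, chosen after their values were seen, had unequal numbers of higher and lower members at 1 h, where 22.7% of all tested genes were called higher and 22.5% lower. Of 24 expansins, proteins that loosen the cell wall, 15 were lower and 3 higher, with a median log2 fold change of -0.97. EXPA15 averaged 10.7 ± 2.20 CPM with SA and 46.5 ± 5.75 CPM in controls (SD, n = 3 each; -2.12), and EXPA17 changed by -2.38. The expansin-like genes EXLA2 and EXLA1 went up by 1.52 and 1.51, EXLA1 with a gene on the opposite strand. Of 122 pectin enzymes and inhibitors 54 were lower and 14 higher, among them AT5G62350 at 11.5 ± 2.52 CPM with SA and 50.0 ± 8.01 CPM in controls. Of 39 SAUR genes 19 were lower and 9 higher, with AT2G46690 at 4.24 ± 0.858 CPM with SA and 21.3 ± 0.678 CPM in controls (-2.31).

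Of 138 disease resistance genes of the TIR or NB-ARC class 59 were higher and 13 lower, with a median of 0.33. AT5G48770 averaged 15.6 ± 3.16 CPM with SA and 5.38 ± 0.863 CPM in controls (1.52), with a gene on the opposite strand, and AT5G38350 changed by 1.45. Of 50 MATE efflux genes 18 were higher, 7 lower and the others not called, led by AT5G52050 at 22.9 ± 5.71 CPM with SA and 3.20 ± 0.762 CPM in controls (2.83). Of 112 MYB genes 52 were lower and 16 higher, and MYB30, a regulator of the hypersensitive response, averaged 125 ± 19.8 CPM with SA and 32.9 ± 2.28 CPM in controls (1.92). Of 264 pentatricopeptide repeat genes 91 were lower, 33 higher and the others not called, yet AT3G29240 averaged 257 ± 29.4 CPM with SA and 26.1 ± 7.45 CPM in controls (3.30), and AT1G23450 averaged 24.2 ± 1.50 CPM with SA and 1.85 ± 0.258 CPM in controls (3.71).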
